A study of Mus musculus with 6 samples.

Results

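The genes described here are 42 listed genes of DNA replication and S phase, chosen by name, out of 26181 in an RNA sequencing table of splenic CD8+ T cells. All 42 were found in the table by their symbols, and all 42 passed the filter of a mean of at least 10 normalised counts, so none is left out of any count below. The mice were wild-type C57BL/6 animals, 6 weeks old when they began either the CDAHFD diet or the ND diet, and both groups were fed for 7 weeks. CDAHFD usually stands for a high-fat diet that lacks choline and has defined amino acids, which brings fatty, scarred livers in mice; the labels do not spell out ND. The sort gate and its purity are not given in the sources used here. Each diet had 3 libraries. Whether each library is its own animal is not stated, so every p-value here reflects variation among these libraries, part of which may be technical.

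Before S phase, the origin recognition complex, Cdc6 and Cdt1 load the Mcm2 to Mcm7 ring onto origins, a step called licensing. Cdc45 and the GINS complex then turn that ring into the working helicase, and polymerases, the sliding clamp Pcna and its loader copy the strands while ribonucleotide reductase and related enzymes supply deoxynucleotides. E2F transcription factors switch on most of these genes as cells leave G1, and resting T cells keep many of them low until antigen makes them divide.

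Because E2F is the classical shared regulator, stretches of promoter are shown for 3 genes that hold an E2F-type motif and for Mcm10 and Chaf1b, which hold none and had the largest falls. Each stretch is the 170 bases just before the RefSeq transcription start (build GRCm38.p6), printed 5′ to 3′ on the gene's strand, and capitals mark the motif. They lie at chr8:75109339-75109508 (plus strand) for Mcm5, chr1:128359706-128359875 (minus strand) for Mcm6, chrX:93632156-93632325 (minus strand) for Pola1, chr2:5012792-5012961 (minus strand) for Mcm10 and chr16:93883731-93883900 (plus strand) for Chaf1b.
Mcm5: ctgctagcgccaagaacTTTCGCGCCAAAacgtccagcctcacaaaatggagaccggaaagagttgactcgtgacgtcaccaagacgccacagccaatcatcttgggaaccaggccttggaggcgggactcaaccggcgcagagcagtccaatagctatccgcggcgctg
Mcm6: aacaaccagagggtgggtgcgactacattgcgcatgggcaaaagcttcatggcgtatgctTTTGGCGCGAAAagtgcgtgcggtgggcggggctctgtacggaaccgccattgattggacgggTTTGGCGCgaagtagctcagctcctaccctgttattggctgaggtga
Pola1: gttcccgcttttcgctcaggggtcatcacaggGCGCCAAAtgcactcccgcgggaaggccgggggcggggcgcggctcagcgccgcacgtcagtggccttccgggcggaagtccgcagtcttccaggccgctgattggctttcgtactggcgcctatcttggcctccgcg
Mcm10: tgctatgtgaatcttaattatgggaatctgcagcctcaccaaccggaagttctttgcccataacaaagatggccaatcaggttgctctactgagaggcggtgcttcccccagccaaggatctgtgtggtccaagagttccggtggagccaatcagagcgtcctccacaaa
Chaf1b: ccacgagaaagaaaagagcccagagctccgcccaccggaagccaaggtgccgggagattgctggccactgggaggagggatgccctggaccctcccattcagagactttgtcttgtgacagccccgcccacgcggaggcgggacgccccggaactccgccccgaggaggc

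The motifs searched were TTTGGCGC, TTTCCCGC, TTTGCCGC and TTTCGCGC and their reverse complements, from 250 bases before to 50 bases after each RefSeq start, with overlapping matches counted separately. Of the 42 genes, 35 had a promoter in the table, and 13 of these (37.1%) held at least 1 match, against 704 of 27025 genes (2.6%) in the whole promoter table and 487 of the 10559 tested genes with a promoter (4.61%). Mcm6 had 3 matches before its start, and Mcm5 had 2 that overlap each other. Matches were not limited to genes that changed: 8 of the 24 matched genes that were lower in CDAHFD libraries held one, and so did 5 of the 11 others, among them Cdt1, Lig1 and Pold1, which did not pass the test. Hells (log2 fold change -0.58) and Rfc3 (-0.40), among the lower genes, held matches as well. All of these are matches of letters, not sites of binding.

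Most replication genes were slightly less abundant after the CDAHFD diet. Of the 42 genes, 28 (66.7%) fell, 1 rose and 13 did not pass, and the median log2 fold change was -0.26, by limma on log2(normalised count + 1) with a call at an adjusted p under 0.05. Of all 15819 genes tested, 22.5% fell and 24.6% rose (47.1% in either direction), and their median log2 fold change was -0.015. The falls were mostly small, since 25 of the 28 were less than 1.5-fold, while Chaf1b, Mcm10 and Cdc45 fell further. Thymidine kinase gene Tk1 was the one member that rose. Chaf1b (ENSMUSG00000022945) lies at chr16:93883901-93906115, Mcm10 (ENSMUSG00000026669) at chr2:4989714-5012791, Cdc45 (ENSMUSG00000000028) at chr16:18780447-18811987 and Tk1 (ENSMUSG00000025574) at chr11:117815526-117826092 in mm10 (GENCODE M21), and all counts are over whole genes.

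The direction depends on what the genes are measured against. Cd8a, the coreceptor gene that defines these cells, averaged 27886 ± 256 normalised counts in CDAHFD libraries and 32889 ± 177 in ND libraries (SD, n = 3 each). Of 20 genes listed as CD8 T cell markers, 16 were themselves lower and 2 higher, and their median log2 fold change was -0.26. Most of them, such as Cd3e and Lck, are shared with other T cells, so the list does not measure CD8 T cells alone. When libraries were scaled to these markers instead of by the authors' factors, which moved the median of all genes tested by 0.24 on the log2 scale, the 42 genes had a median of -0.018, with 7 called lower and 4 called higher, against 6.3% lower and 50.5% higher among all genes tested. With this scaling 19 of the 42 fold changes were positive, against 1 with the authors' factors. The 7 were Chaf1b, Mcm10, Cdc45, Hells, Pole, Chaf1a and Rrm2, and the 4 were Tk1, Cdt1, Pold1 and Lig1. In bulk RNA, fewer cells of a type and less RNA per cell cannot be told apart.

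**Figure D1:**
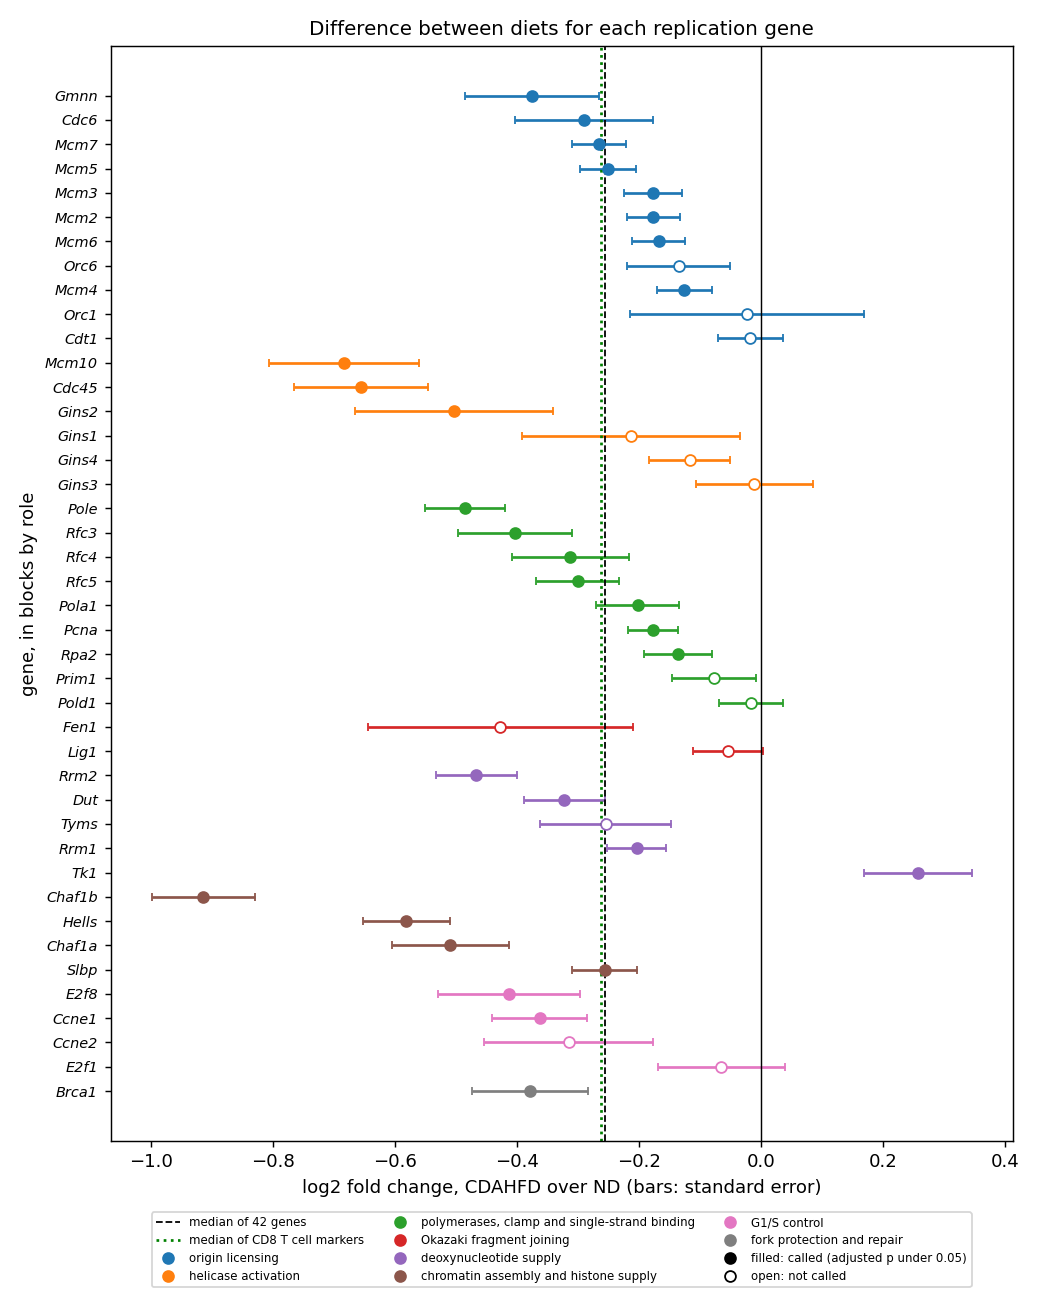
Log2 fold change of CDAHFD over ND for each of the 42 genes, in blocks by role, with standard errors as bars; filled points were called at an adjusted p under 0.05 and open points were not. The dashed line is the median of the 42 genes and the dotted line that of the CD8 T cell markers, each at -0.26, and Tk1 is the only point to the right of 0.

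Recovered reads per library ran between 25314988 and 28067393. Summed over the 42 genes, the libraries had 37593, 36409 and 36700 normalised counts after CDAHFD, against 43013, 42510 and 42225 after ND, so that every CDAHFD library lay below every ND library. These sums were 0.137% to 0.139% of all normalised counts in CDAHFD libraries and 0.161% to 0.163% in ND libraries. The fewest reads behind any value were the 33 reads of Fen1 in 1 library, and 2 genes, Orc1 and Fen1, stayed under 100 normalised counts in every library. The median coefficient of variation between libraries was 4.78% in CDAHFD and 4.53% in ND, with the widest spreads at Gins1 in CDAHFD (26.1%) and Tyms in ND (15.9%).

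**Figure D2:**
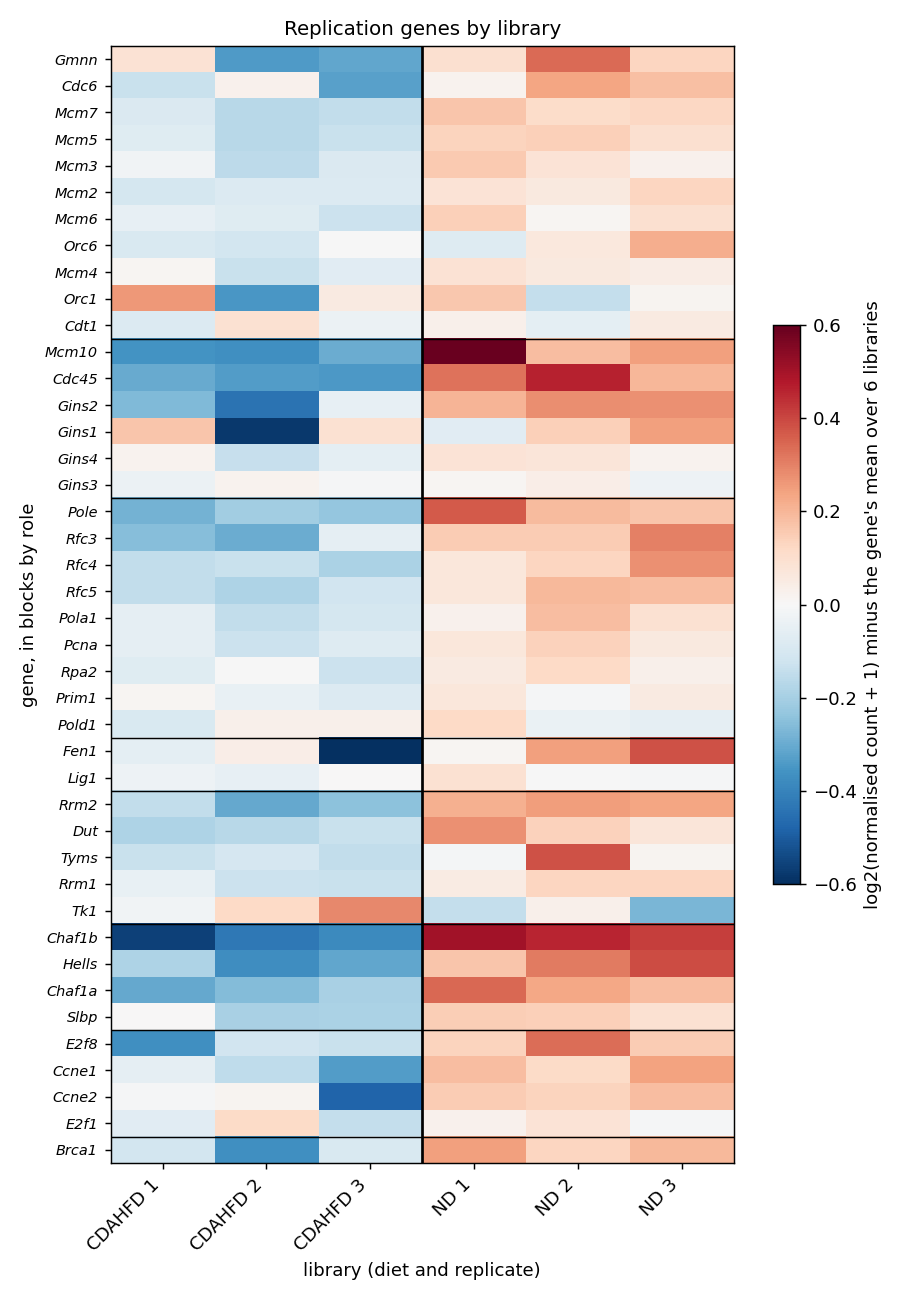
Heat map of log2(normalised count + 1) minus each gene's mean over the 6 libraries, with genes in blocks by role and CDAHFD libraries left of the line. Of the 42 genes, 30 have all 3 CDAHFD libraries below all 3 ND libraries, and the strongest contrast is that of Chaf1b.

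The 3 CDAHFD libraries lay below the 3 ND libraries without overlap for 30 of the 42 genes (71.4%), against 26.5% of all genes tested, and for none of the 42 did they lie above, against 27.8% of all genes. Of the 13 genes that did not pass the test, 3 had no overlap, namely Gins4, Tyms and Ccne2.

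The preparations also held RNA of other spleen cells, and several marker lists differed between the diets. The macrophage markers summed to 168654 to 184852 normalised counts in CDAHFD libraries, against 19835 to 21933 in ND libraries, and 15 of 15 rose, among them Vcam1 and Csf1r. Of the erythroid markers 13 of 15 rose, with sums of 12990 to 13259 after CDAHFD and 4046 to 4344 after ND. Tfrc and Hba-a1 had the highest means of the erythroid list. Other cells can also express Tfrc, so these sums do not measure erythroid cells alone. Of the B cell markers 11 of 12 fell, with sums of 23123 to 24474 after CDAHFD and 30076 to 31280 after ND. Bcl6 and Fas had the highest means of the germinal centre B cell markers. T cells can also express them, so this list is not specific to dividing B cells. Its sums were 2496 to 2523 after CDAHFD and 2232 to 2256 after ND, with 3 of 8 higher and 1 lower. The NK cell markers likewise had 3 of 8 higher and 1 lower, and the CD4 and regulatory T cell markers 3 of 6 higher and 1 lower, where 24.6% of all genes tested were higher and 22.5% lower. The plasma cell markers had 5 of 7 tested higher and 1 lower, and the neutrophil and monocyte markers 9 of 12 higher and 1 lower. Of the dendritic cell markers 7 of 10 were lower and 0 higher. By mean level Eomes and Klrk1 led the NK cell list, Ly6c2 and S100a9 the neutrophil and monocyte list, and Irf8 and Ccr9 the dendritic cell list. CD8 T cells can express Eomes, Klrk1, Ly6c2 and Ccr9, so these lists do not measure other cells alone. The sample handling genes had 6 of 10 higher and 1 lower, and no marker was at 0 in any library. The part of other cells, or of a change within CD8 T cells, in the replication values was not tested.

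Licensing genes fell by small amounts, 8 of 11 of them, with a median log2 fold change of -0.18. All 6 subunits of the Mcm2 to Mcm7 ring, the replicative helicase core, passed the test with log2 fold changes between -0.27 and -0.13, but with scaling to the CD8 T cell markers Mcm2, Mcm3, Mcm4 and Mcm6 turned to between 0.061 and 0.11 and none of the 6 was called. Mcm7 had 2394, 2259 and 2294 normalised counts in the CDAHFD libraries, against 2851, 2736 and 2763 in the ND libraries (log2 fold change -0.27, SE 0.04, limma adjusted p = 1.11e-05). Mcm5, whose promoter is printed above, had 2015, 1887 and 1932 after CDAHFD and 2329, 2342 and 2270.3 after ND, a decrease of 0.25 on the log2 scale. Mcm2 stood at 2265, 2300.4 and 2303 after CDAHFD, against 2574, 2532 and 2659 after ND. In all 3 genes the diets did not overlap. Mcm4, with the smallest change of the 6 subunits, lost its call without CDAHFD replicate 2, CDAHFD replicate 3, ND replicate 1 or ND replicate 2 (adjusted p up to 0.163). With limma run without its trend and robust options, Mcm3, Mcm4 and Mcm6 lost their calls (adjusted p = 0.065, 0.114 and 0.0563).

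The loaders of the ring did not all pass the test. Cdt1, which brings the ring to origins, had 1474, 1662 and 1526 normalised counts in CDAHFD libraries and 1595, 1499 and 1624 in ND libraries, which overlap (limma adjusted p = 0.81). Gmnn encodes geminin, the protein that binds and blocks Cdt1 outside G1, and it fell to 304, 226 and 230.4 in CDAHFD libraries, against 306, 362 and 313 in ND libraries (log2 fold change -0.38, SE 0.11, adjusted p = 0.0062). CDAHFD replicate 1 reached almost to the lowest ND library, and without ND replicate 2 the call was lost (adjusted p = 0.0543). Cdc6, the ATPase that works with Cdt1, fell by 0.29 on the log2 scale with overlapping libraries, a call lost without CDAHFD replicate 3, ND replicate 2 or ND replicate 3. Orc1, the largest subunit of the origin recognition complex, had 77.2, 50.2 and 66.8 after CDAHFD and 71.9, 58.2 and 65.1 after ND (adjusted p = 0.934), and Gm12743 on the other strand covers 10.8% of its exon length. Orc6, its smallest subunit, had 391, 386 and 415 after CDAHFD and 395, 435 and 485 after ND (adjusted p = 0.202). Neither subunit separated the diets.

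Helicase activation held a pair of the largest falls. Mcm10, which helps the loaded helicase to open the DNA, had 135, 134 and 141 normalised counts in CDAHFD libraries, against 263, 198 and 206 in ND libraries (log2 fold change -0.68, SE 0.12, adjusted p = 3.62e-05). Cdc45, a core part of the active helicase, had 164, 160.1 and 159 after CDAHFD and 253, 279 and 232 after ND (log2 fold change -0.66, SE 0.11, adjusted p = 1.32e-05). The CDAHFD values of both genes were tightly grouped and well below every ND value, and both remained lower when scaled to CD8 T cell markers (-0.45 and -0.42 on the log2 scale).

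The 4 subunits of GINS, the ring-shaped partner of Cdc45, had log2 fold changes between -0.50 and -0.011 (between -0.27 and 0.23 when scaled to CD8 T cell markers), and 1 of the 4 was called. Gins2 had 69.8, 61.6 and 81.3 in CDAHFD libraries and 97, 102 and 102 in ND libraries (adjusted p = 0.0118, and 0.0663 without CDAHFD replicate 2). Exons of Gse1, on the other strand, cover 67.3% of the Gins2 exon length, and the strand setting of the counting is not given in the sources used here, so reads of the pair cannot be told apart. The same holds, for smaller or larger parts of their exons, for each of the 15 members that overlap a gene on the other strand. Gins1 had 107, 63.5 and 102 after CDAHFD and 90.7, 105 and 113 after ND, with 1 low CDAHFD library. Gins3 had 248, 259 and 254 after CDAHFD and 256, 261 and 249 after ND, and Gins4 had 694, 621 and 657 after CDAHFD and 723, 719 and 695 after ND. Gins1, Gins3 and Gins4 did not pass the test (adjusted p = 0.35, 0.938 and 0.151), and the level of Gins3 was nearly the same in all 6 libraries.

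Among polymerases and their partners 7 of 9 genes fell. Pole, which encodes the leading-strand enzyme, had 622, 654 and 645 normalised counts in CDAHFD libraries, against 977, 865 and 851 in ND libraries (log2 fold change -0.48, SE 0.07, adjusted p = 5.06e-07). Pold1, of the lagging-strand enzyme, had 1908, 2078 and 2077 after CDAHFD and 2206, 1979 and 1954 after ND (log2 fold change -0.017, SE 0.05, adjusted p = 0.824). The difference between these genes' changes was not tested. Prim1, the primase catalytic subunit, had 590.0, 567 and 552 after CDAHFD and 613, 583 and 607 after ND, overlapping at the margin (adjusted p = 0.382). Pola1, the catalytic subunit of the polymerase that extends primers, fell by 0.20 on the log2 scale, a call lost without CDAHFD replicate 2 or ND replicate 2 (adjusted p up to 0.103).

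All 3 clamp loader subunits on the list fell. Rfc3 had 269, 260.4 and 309 normalised counts after CDAHFD, against 357, 356 and 395 after ND (log2 fold change -0.40, SE 0.09, adjusted p = 6.94e-04). Rfc5 had 567, 551 and 579 after CDAHFD and 658, 719 and 715 after ND, a decrease of 0.30 on the log2 scale, and Rfc4 fell by 0.31. The diets did not overlap in these 3 genes. Rfc4 and Rfc5 share 12.7% and 10.7% of their exon length with Eif4a2 and Wsb2 on the other strand, and Rfc4 lost its call without ND replicate 3 (adjusted p = 0.0571). With scaling to CD8 T cell markers Rfc3, Rfc4 and Rfc5 stayed negative (-0.17, -0.076 and -0.063) and none was called. Pcna, the sliding clamp itself, fell to 3814 ± 102 in CDAHFD libraries, against 4312 ± 125 in ND libraries (SD, n = 3 each; log2 fold change -0.18, adjusted p = 7.87e-04), and a pseudogene copy, Pcna-ps2, stood at 36 and 34.8 normalised counts in CDAHFD and ND. Per kilobase of exon Pcna was the most abundant of the 42 genes, at 1589 normalised counts per kilobase in CDAHFD and 1797 in ND, and Orc1 was the least abundant in ND, at 18.6 in CDAHFD and 18.7 in ND. Rpa2, a subunit of the protein that coats single-stranded DNA, passed narrowly (log2 fold change -0.14, adjusted p = 0.0467), and the call held in 1 of 6 fits with a library left out, the one without CDAHFD replicate 2.

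Neither of the genes that finish Okazaki fragments, the short pieces of the lagging strand, passed the test. Lig1, the ligase that seals them, had 956, 941 and 976 normalised counts in CDAHFD libraries and 1038, 973 and 972 in ND libraries (adjusted p = 0.465). Fen1, the nuclease that trims their flaps, had 47.6, 51.1 and 31.9 after CDAHFD and 50, 59.2 and 65.1 after ND (adjusted p = 0.11). Its counts were low, and the antisense gene Gm10143 covers 78.8% of its exon length, so the Fen1 value is uncertain.

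**Figure D3:**
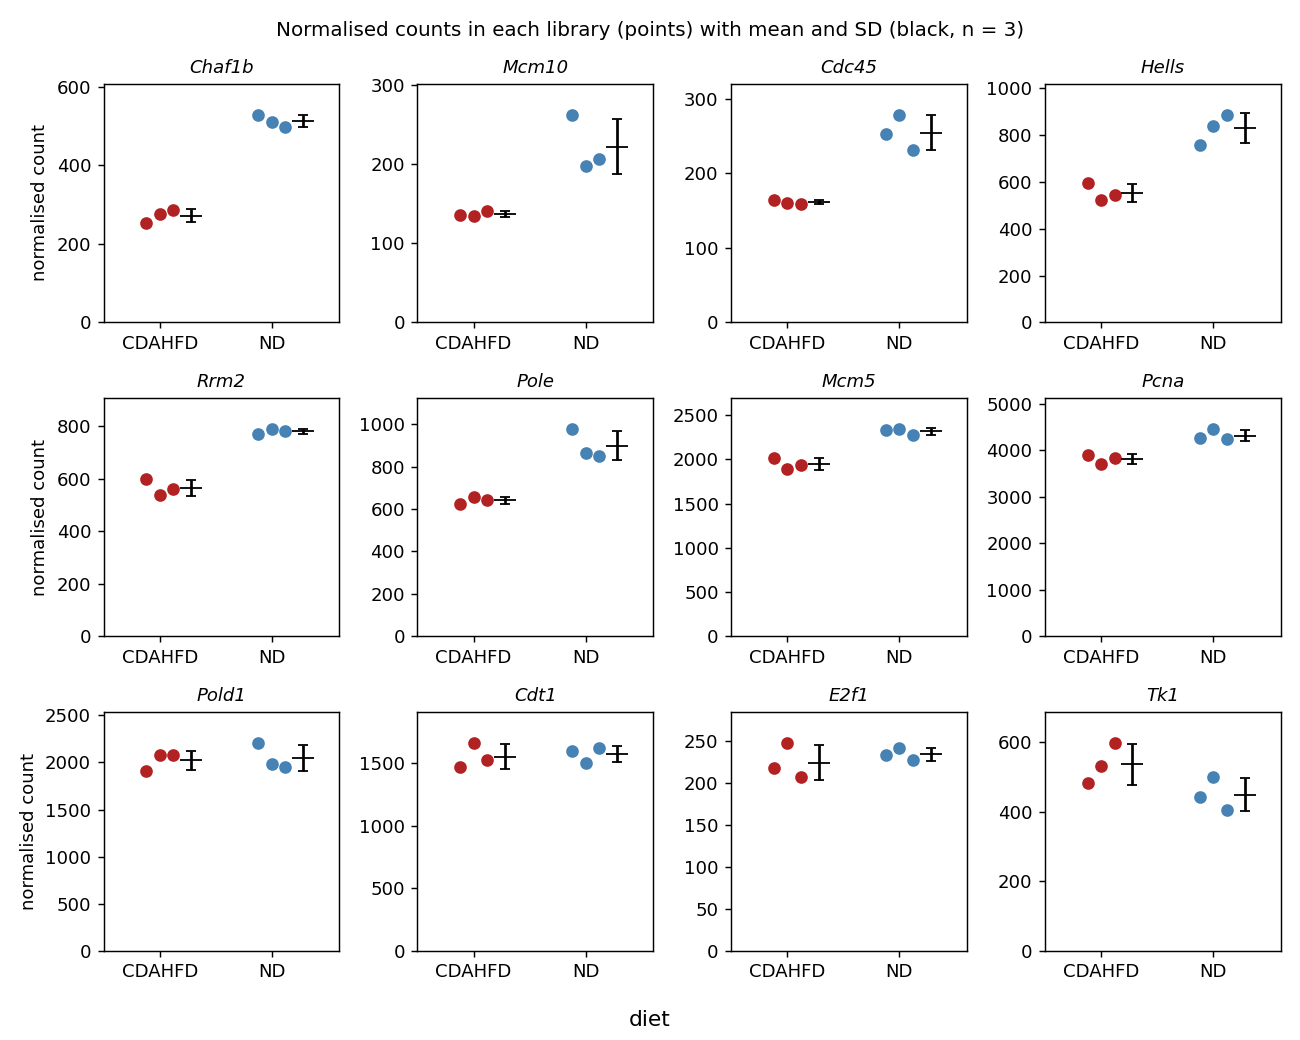
Normalised counts of 12 replication genes in each library, with CDAHFD left of ND, points for libraries and black bars for the mean and SD of 3. Chaf1b averages 272 in CDAHFD and 512 in ND without overlap, while Pold1, Cdt1 and E2f1 overlap and Tk1 leans the other way.

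Genes of deoxynucleotide supply went both ways. Rrm2, the S-phase subunit of ribonucleotide reductase, fell to 598, 537 and 559 normalised counts in CDAHFD libraries, against 769, 789.8 and 783 in ND libraries (log2 fold change -0.47, SE 0.07, adjusted p = 1.06e-06). Its partner Rrm1 had 1732, 1635 and 1624 after CDAHFD and 1846, 1953 and 1949.7 after ND, a smaller decrease of 0.20 on the log2 scale, and the difference between these decreases was not tested. Dut, which removes dUTP and so keeps uracil out of DNA, had 631, 640.2 and 654 after CDAHFD and 868, 791 and 754 after ND (log2 fold change -0.32, SE 0.07, adjusted p = 1.86e-04). In Rrm1, Rrm2 and Dut no CDAHFD library reached an ND library.

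Tyms, which makes thymidylate from dUMP, had 235, 241 and 232 normalised counts after CDAHFD and 255, 336 and 260.2 after ND, with 1 high ND library. It missed the threshold by limma (adjusted p = 0.0524) and DESeq2 (adjusted p = 0.0911) but passed by edgeR (adjusted p = 0.0467). Tk1, the salvage enzyme that phosphorylates thymidine, rose to 481, 530.4 and 597 in CDAHFD libraries, against 443, 499 and 404 in ND libraries (log2 fold change 0.26, SE 0.09, adjusted p = 0.0176). Its diets overlapped, since ND replicate 2 lay above CDAHFD replicate 1, and the call was lost without CDAHFD replicate 3, ND replicate 1 or ND replicate 3 (adjusted p up to 0.142).

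All 4 genes of chromatin assembly and histone supply fell, with a median log2 fold change of -0.55. Chaf1b, a subunit of the chaperone CAF-1 that places histones on newly copied DNA, had 253, 277 and 286 normalised counts in CDAHFD libraries, against 529, 511 and 497 in ND libraries (log2 fold change -0.91, SE 0.08, adjusted p = 3.56e-10). The ND values were close to each other and all far above the CDAHFD values, and the decrease was 0.68 on the log2 scale when scaled to CD8 T cell markers. Chaf1a, the largest CAF-1 subunit, had 217, 224 and 234 after CDAHFD and 341, 315 and 305 after ND (log2 fold change -0.51, SE 0.10, adjusted p = 6.51e-05), although Ubxn6 on the other strand covers 52.5% of its exon length.

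Hells, a chromatin remodeller that helps to maintain DNA methylation, had 594, 522 and 544 normalised counts after CDAHFD, against 760.0, 839.8 and 887 after ND (log2 fold change -0.58, SE 0.07, adjusted p = 8.96e-08). Slbp binds the stem-loop of histone messenger RNAs, and it had 1617, 1412 and 1416 after CDAHFD and 1791, 1786 and 1723 after ND (log2 fold change -0.26, SE 0.05, adjusted p = 2.32e-04). Both genes separated the diets fully.

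Of the 4 regulators of S-phase entry on the list, 2 fell and 2 did not pass the test, and differences between them were not tested. E2f1, an activator, had 218, 247 and 207 normalised counts in CDAHFD libraries and 232, 242 and 227 in ND libraries (adjusted p = 0.647). E2f8, an E2F repressor that is itself an E2F target, fell to 144, 171 and 169 after CDAHFD, against 204, 235 and 206 after ND (log2 fold change -0.41, SE 0.12, adjusted p = 0.00445). Ccne1, the cyclin E that drives the kinase Cdk2 into S phase, had 512, 478 and 421 after CDAHFD and 606, 577 and 629 after ND (log2 fold change -0.36, SE 0.08, adjusted p = 3.16e-04). The second cyclin E gene, Ccne2, had 142, 144 and 102 after CDAHFD and 158, 156 and 162 after ND, and it missed the threshold with a log2 fold change of -0.32 (adjusted p = 0.0632). Brca1, which protects stalled forks and serves recombination, had 284, 238 and 288 after CDAHFD and 364, 336 and 352 after ND (log2 fold change -0.38, SE 0.10, adjusted p = 0.00168). In E2f8, Ccne1, Ccne2 and Brca1 no CDAHFD library reached an ND library, whereas E2f1 overlapped. On the other strand Ints8, at 1539 normalised counts in CDAHFD and 1466 in ND, covers 17.4% of the Ccne2 exon length, and Gm2788, at 20.1 in CDAHFD and 5.42 in ND, covers 11.2% of that of E2f8.

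Of 49 other genes of the replication machinery 29 fell, 2 rose and 18 did not pass the test, with a median log2 fold change of -0.26. Of all genes tested 22.5% fell and 24.6% rose. When scaled to CD8 T cell markers, 11 of the 49 were called lower and 16 higher, against 6.3% lower and 50.5% higher among all genes tested. Pclaf, a Pcna-binding factor, fell to 390.1 ± 44.4 normalised counts in CDAHFD libraries, against 736 ± 51.4 in ND libraries (SD, n = 3 each), a log2 fold change of -0.92. Uhrf1, which brings Dnmt1 to newly copied DNA, had 815 ± 46.2 after CDAHFD and 1252 ± 11.5 after ND. Dna2, a nuclease and helicase, fell by 0.76 and Topbp1, a fork and checkpoint scaffold, by 0.32 on the log2 scale. Donson, a helicase assembly factor, and Pole4, a small subunit of the leading-strand polymerase, rose (log2 fold changes 0.15 and 0.14).

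Genes of the fork checkpoint and recombination had 20 of 25 lower, 1 higher, 4 not called and a median log2 fold change of -0.41. When scaled to CD8 T cell markers 10 were lower and 2 higher, with a median of -0.17. Among all genes tested this scaling gave 6.3% lower and 50.5% higher. Timeless, a part of the complex that travels with the fork, averaged 721 ± 41.3 in CDAHFD libraries and 1379 ± 56.6 in ND libraries (log2 fold change -0.93, SE 0.06, adjusted p = 1.18e-13). Its partner Tipin fell by 0.74 on the log2 scale, the checkpoint mediator Clspn by 0.84 and the helicase gene Blm by 0.81. Palb2, the partner of Brca2, went the other way at 404 ± 33 after CDAHFD and 336 ± 24.3 after ND.

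Of 35 regulators of E2F, the retinoblastoma family and S-phase entry, 32 were tested, with 14 lower, 7 higher and 11 not called. Their median log2 fold change was -0.12, and of all genes tested 22.5% were lower and 24.6% higher. Scaling to CD8 T cell markers gave 7 lower and 13 higher (median 0.11). With this scaling 6.3% of all genes tested were lower and 50.5% higher (median 0.22). E2f2 fell to 653 ± 15.7 normalised counts in CDAHFD libraries, against 1206 ± 45.2 in ND libraries (log2 fold change -0.88), and Cdca7, a partner of Hells, fell by 0.76. Cdkn2d, an inhibitor of Cdk4 and Cdk6, fell by 0.54. Skp2, a ubiquitin ligase subunit that marks the inhibitor p27 for destruction, rose to 709 ± 50.3 in CDAHFD libraries, against 187 ± 30.9 in ND libraries (log2 fold change 1.93, SE 0.10, adjusted p = 1.67e-14). Cdkn1b, which encodes p27, also rose (log2 fold change 0.30), as did the early G1 genes Ccnd3 (0.33) and Cdk6 (0.32).

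Mitosis genes had a lower median than the replication genes, at -0.70 on the log2 scale, with 27 of 28 lower and 1 higher. When scaled to CD8 T cell markers 21 were still called lower, against 6.3% of all genes tested. Of the mitosis genes 19 were both called and at least 1.5-fold lower, against 3 of the 42 replication genes and 5.03% of all genes tested. Racgap1, which acts in cytokinesis, was the one that rose, by 0.26 on the log2 scale. No test of the difference between lists was made. The E2F-type motifs were found in 1 of 23 mitosis genes with a promoter in the table.

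**Figure D4:**
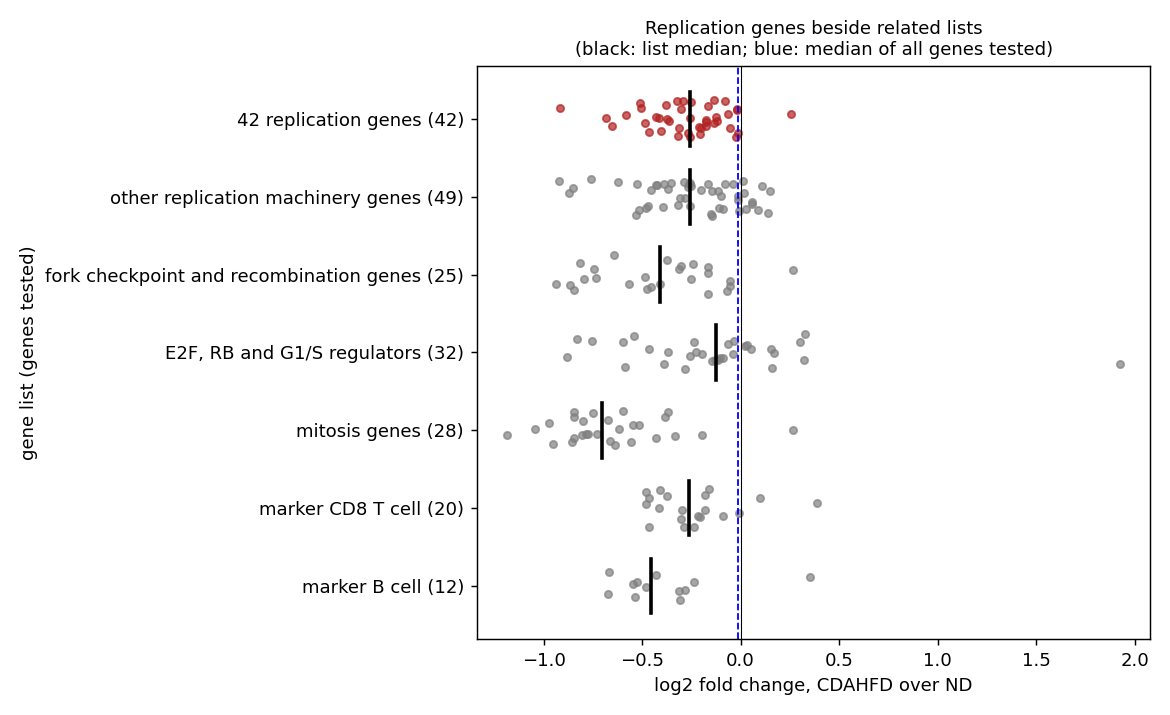
Log2 fold changes of CDAHFD over ND for the 42 replication genes (red) and related lists (grey), 1 point per tested gene, with black lines at list medians and a dashed blue line at the median of all genes tested (-0.01). The replication genes and CD8 T cell markers share a median of -0.26, and mitosis genes sit lower, at -0.70.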

How the data were processed

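The deposited signal values, per the file headers normalised counts of 26181 Ensembl IDs in 6 libraries, are gene-level reads scaled by the authors. In each column 100% of values were whole multiples of the smallest value above 0 (tolerance 0.001), so whole reads were recovered, 25314988 to 28067393 per library. The build was mm10 per the submitters' processing notes; aligner, counter and strand setting are not given in the sources used here. Per the labels' protocols either a whole-RNA or an mRNA kit was used, and which kit served which library is not stated, so a kit difference between diets cannot be told apart from diet. Columns spelled CDHFD were matched to CDAHFD as the only other group. Symbols matched 26147 IDs; exon lengths and overlaps came from GENCODE M21 (same build) and promoters from RefSeq.

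The main test was limma 3.58.1 (trend, robust) in R 4.3.3 on log2(normalised count + 1), diet as the one term, for 15819 genes with a mean of at least 10 and Benjamini-Hochberg adjustment over all of them. This scale understates changes of low genes. In data simulated for CDAHFD against ND on 15819 genes, the test recovered 25 of 50 genes changed 1.3-fold and 35 of 50 at 1.5-fold. It recovered 40 of 50 at 2-fold and 50 of 50 at 4-fold, and 7 of 157 calls were false. Far fewer genes changed in the simulation than the 47.1% called in the data, so these rates do not carry over to the real test. Alternatives were edgeR 4.0.16 (quasi-likelihood) and DESeq2 1.42.0 on recovered reads, and other pseudocounts, filters, scalings, folds, a replicate block and each library left out.

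The genes and lists were chosen with earlier results of these data known, and no set test was made. Values in every library are given for the 3 called genes of each role with the smallest adjusted p, the largest and smallest changes, and every gene that rose or was not called; of each pathway list the 4 genes with the smallest adjusted p and up to 4 against it are named, and of each marker list at most the 2 with the highest mean.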

Additional observations from a re-analysis of the deposited data

How the results depend on the processing

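The 28 lower and 1 higher replication genes, with 7449 genes called in all, became 29 and 1 by edgeR (7489 in all) and 26 and 1 by DESeq2 (6755). Cdc6 and Rpa2 lost their calls by DESeq2 (adjusted p = 0.0818 and 0.0924). Pseudocounts, filters, equal totals and trimmed mean of M-values scaling gave between 27 and 30 lower. Scaling to CD8 T cell markers gave 7 lower and 4 higher, a median of -0.018 and 11 other machinery genes lower, and made 19 of the 42 fold changes positive, against 1, turning the sign of Cdt1 (0.22), Pold1 (0.22), Lig1 (0.18), Mcm4 (0.11), Rpa2 (0.10), Mcm6 (0.071), Mcm2 (0.061), Mcm3 (0.061), Pcna (0.061), Pola1 (0.035), Rrm1 (0.034) and, among genes not called under either scaling, Gins3 (0.23), Orc1 (0.21), E2f1 (0.17), Prim1 (0.16), Gins4 (0.12), Orc6 (0.10) and Gins1 (0.022); a shift common to all genes is part of this scaling. Asking also for 1.5-fold left 3 lower and 0 higher replication genes, 5 other machinery genes and 2948 genes in all. Without trend and robust estimation 22 were lower and 0 higher. The 7 genes that lost their call were Tk1, Cdc6, Gmnn, Mcm3, Mcm4, Mcm6 and Rpa2, and the cause was not tested. With 1 library left out, 23 to 28 were lower and 0 to 1 higher, the median ran from -0.29 to -0.22, other machinery genes lower from 26 to 31 and all calls from 6573 to 7537; 21 of the 28 kept their call in all 6 fits. Same-numbered libraries showed little shared deviation from the means of their diets (correlations between -0.05 and 0.06). With 3 libraries per diet this cannot settle whether the libraries were paired. A replicate block gave 28 lower, 1 higher and 7250 genes in all. Depth limits Fen1, Orc1, Gins1 and Gins2 most.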

Other observations

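Most histone genes listed as replication-dependent, whose messenger RNAs usually end in a stem-loop in place of a poly(A) tail, were barely counted. The table holds 55 such genes, and 20 had a mean of at least 10 normalised counts. Of these 20, 7 rose, 1 fell and 12 were not called, where 24.6% of all genes tested were higher and 22.5% lower. Whether the counted transcripts had poly(A) tails or were made in S phase was not tested, so these counts do not measure replication. Which of the whole-RNA and mRNA kits served which library is not stated, and kits that select poly(A) tails would count these genes differently, so the contrast below depends on both diets having had the same kit. Hist1h1c, a linker histone gene, averaged 550 ± 20.8 normalised counts in CDAHFD libraries and 356 ± 30.4 in ND libraries (SD, n = 3 each). Hist1h2bc averaged 148 ± 31.3 after CDAHFD and 36.1 ± 4.32 after ND, and Hist3h2a 74.4 ± 9.46 and 44.9 ± 11.8. Hist2h2be fell to 179 ± 17.5 in CDAHFD libraries, against 272 ± 10.2 in ND libraries. Members of this family share close to identical sequences, so their counts are uncertain.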
